A study of Sus scrofa with 8 samples.

Results

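Whole somite libraries of embryonic day (E) 18 were compared with those of E16, the earliest stages of the series. The rule took all barcodes of the E16 and E18 libraries with at least 200 genes, at most 30000 UMIs and at most 10% of their UMIs on the 13 mitochondrial genes, and summed the UMIs (distinct RNA molecules) of each gene over them. It gave 4 of the 8 libraries of the series and 37548 of its 82394 barcodes. Each library was made by 10x Chromium 3' sequencing from somites pooled from 5 embryos of a single sow. E16-ZZ and E18-ZZ came from Tibetan pigs (ZZ), and E16-DZ and E18-DZ from the cross of Duroc with Tibetan pigs (DZ). No embryo was treated or genetically altered, and a single library stood for every stage and breed. Levels are given as CPM (counts scaled to a common library total), adjusted by the trimmed mean of M values (TMM).

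Somites are blocks of paraxial mesoderm that bud from the presomitic mesoderm, head end first, on both sides of the neural tube. Each one divides into the sclerotome, which forms vertebrae and ribs, and the dermomyotome, which gives rise to the myotome and so to skeletal muscle. Myogenic commitment runs through PAX3 and PAX7 and then through the myogenic regulatory factors, of which MYF5 is switched on early and MYOG at differentiation. A dissected strip of somites can carry surface ectoderm, gut and yolk sac epithelium, vessels, blood, neural tube and lateral plate.

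After filtering, 6297 (ZZ) and 10603 (DZ) barcodes were left at E16 and 10301 and 10347 at E18, with 47651997 to 66696834 UMIs per library and medians of 4736 to 6338 UMIs per barcode. The mitochondrial limit removed 39.2% of the deposited barcodes of E16-ZZ and 3.30% to 9.15% of those of the other 3 libraries. Pairs of the 4 libraries shared 20 to 37 barcode sequences, at most 0.397% of the smaller library. Both E16 matrices name Cell Ranger 3.1.0 and the E18 matrices 3.0.2, so version and stage cannot be told apart. In bulk sums fewer cells of a type and less RNA per cell cannot be told apart either. Because no stage and breed was sampled again, a p-value sets the stage change against how far the breeds differ in their stage changes. That spread is taken over all 8 libraries, E21 and E28 included, with a residual of 3 degrees of freedom. The test also draws the spread of each gene towards that of other genes, with a median prior of 3.84 degrees of freedom.

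The label of the tissue was checked against paraxial genes and against genes of other tissues. TCF15, MEOX1, PAX3 and PAX1 were present in all 4 libraries, and so were high levels of KRT8 and KRT18, keratins that are not limited to epithelium. Barcodes with at least 5 UMIs on KRT8, KRT18 and EPCAM, called keratin-rich here, made up 61.6% and 58.0% of the E16 libraries and 32.6% and 24.04% of the E18 libraries, in the order ZZ and DZ. With every barcode thinned to 1500 UMIs and a limit of 2 such UMIs, the shares were 60.1%, 59.0%, 31.9% and 23.3%, while among haemoglobin-rich barcodes, which should lack keratins, they were 13.8%, 18.5%, 8.53% and 7.64%. These red cell barcodes had median depths of 10310, 9509, 4084 and 7043 UMIs before thinning, against 6430, 5648, 6422 and 4914 UMIs for all thinned barcodes. Barcodes with a UMI of at least 2 of 9 paraxial genes (TCF15, MEOX1, MEOX2, PAX3, FOXC2, PAX1, PAX9, DMRT2 and UNCX) made up 5.64% and 5.23% of the E16 libraries and 15.1% and 14.4% of the E18 libraries, in the same order. Thinned, these shares were 0.843% and 0.984% at E16 and 3.49% and 3.76% at E18, with 0 to 0.294% among haemoglobin-rich barcodes. Neither share among all barcodes overlapped between the stages, and with 2 libraries against 2 no permutation test can pass a threshold of 0.05. The shares are not independent of the gene results given below. MEOX1, MEOX2, PAX1, PAX9, DMRT2 and UNCX, which help define the paraxial share, were themselves called higher at E18. KRT18 and EPCAM, which help define the keratin-rich share, were called lower.

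**Figure D1:**
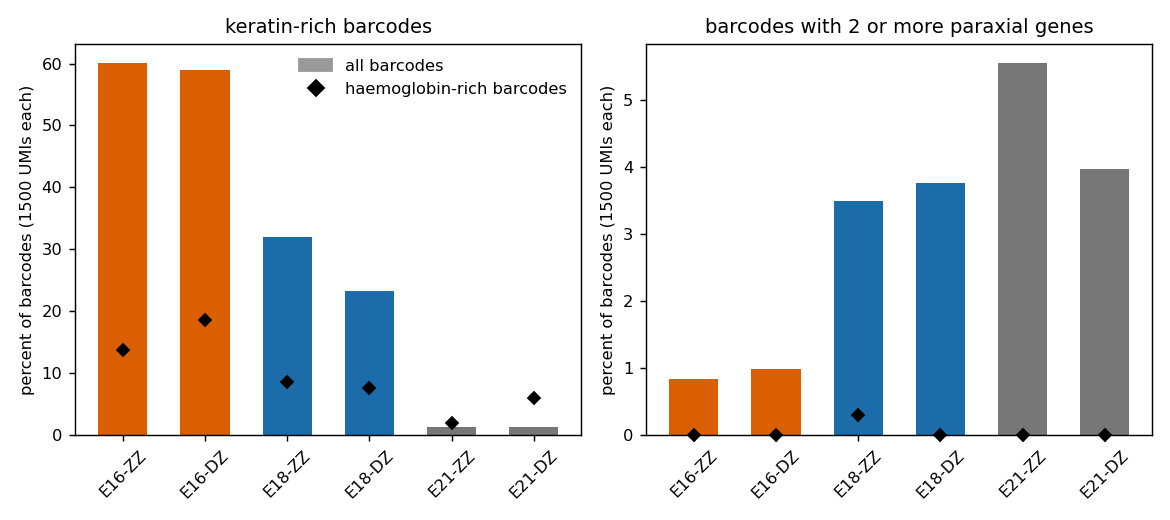
Bars show the percent of barcodes, each thinned to 1500 UMIs, that are keratin-rich (left) or hold 2 or more paraxial genes (right) in each E16, E18 and E21 library, and diamonds show the same share among haemoglobin-rich barcodes. Keratin-rich barcodes went from 60.1% and 59.0% at E16 to 31.9% and 23.3% at E18 and to 1.32% and 1.37% at E21.

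Of 14604 genes with enough UMIs to be tested, 393 were higher and 526 lower at E18 at an adjusted p under 0.05 (edgeR quasi-likelihood test, breed as a covariate), which is 2.69% and 3.60% of the genes tested. The median log2 fold change of all genes was 0.01. Muscle, dermomyotome, sclerotome and neural genes were among the genes that rose, and epithelial, endodermal and cardiac genes among those that fell. The lists of these groups are described by counts and medians, and their counts stand beside the 2.69% higher and 3.60% lower of all genes. With libraries scaled by total UMIs alone the median of all genes moved to 0.18 and the calls turned to 691 higher and 330 lower, so that 67.7% of the calls were higher in place of 42.8%. Without E16-ZZ there were 29 higher and 62 lower genes, without E16-DZ 18 and 60, without E18-ZZ 27 and 35, and without E18-DZ 11 and 6. Among the named genes MYLPF, TNNC2, MEOX2, CLDN4, KRT7 and SPINT2 were called in all 4 of them. In 65.6% of all genes tested the E18 libraries did not overlap the E16 libraries, so separation alone sets few genes apart.

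**Figure D2:**
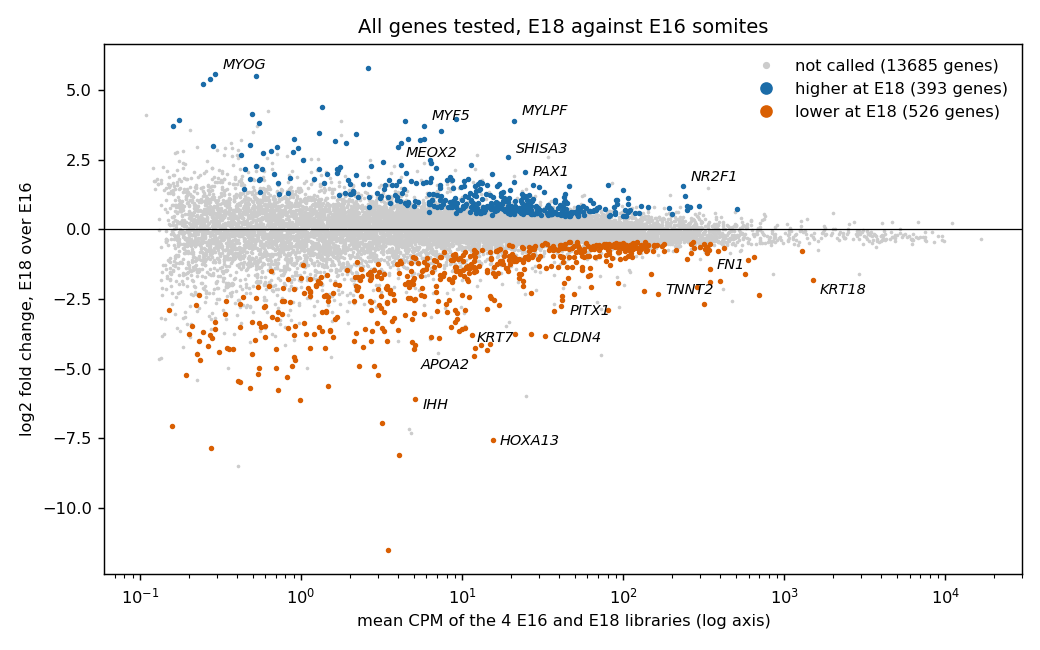
Each point is 1 of the 14604 genes tested, with its mean CPM over the 4 libraries on a log axis and its log2 fold change of E18 over E16; blue points were higher (393) and orange points lower (526) at an adjusted p under 0.05. MYLPF (3.90) and MYOG (5.56) lie high above zero, and HOXA13 (−7.55) and IHH (−6.07) far below it.

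Several genes of skeletal muscle rose. Of 13 tested myogenic regulators 7 rose and none fell, with a median log2 fold change of 1.88 (1.18 at a mitochondrial limit of 5%), and of 18 contractile genes 4 rose and 1 fell, with a median of 0.16 and summed levels of 937 and 1485 CPM at E16 and 828.5 and 803.5 CPM at E18. The contractile median was 0.072 to 0.875 with 1 library left out (lowest without E18-ZZ, highest without E16-ZZ), 0.696 without keratin-rich barcodes and 0.653 in barcodes with 2 or more paraxial genes. MYF5, the first myogenic regulatory factor of the somite, was at 1.05 (ZZ) and 0.637 CPM (DZ) at E16 and, in the same order, at 11.4 and 10.1 CPM at E18. It rose 13.1-fold (log2 fold change 3.71 ± 0.45 SE, adjusted p = 0.014). MYOG, the regulator of terminal differentiation, had 0 and 1 UMIs at E16 and 31 and 39 UMIs at E18. Over the pooled stages that is a ratio of 63.1 with a 95% exact binomial interval of 10.96 to 2527, which covers counting error only, and the fitted change passed the test (adjusted p = 0.0181). CHRNA1, the alpha subunit of the muscle acetylcholine receptor, went from 1 and 12 UMIs to 107 and 211 UMIs and rose 20.9-fold (adjusted p = 0.0179). PAX7, which marks muscle progenitors and dorsal neural tube, was at 1.53 and 3.17 CPM at E16 and at 5.04 and 7.61 CPM at E18 and rose 2.71-fold (adjusted p = 0.0276). The fusion gene MYMK rose 9.45-fold (adjusted p = 0.00882), the muscle cadherin CDH15 3.69-fold (adjusted p = 0.00587) and TCF12, a partner of the myogenic factors, 1.88-fold (adjusted p = 0.0237). MYF6 was at 0.455 and 0.235 CPM and then at 2.03 and 1.87 CPM, and did not pass (adjusted p = 0.0655). MYOD1 had too few UMIs to be tested.

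The contractile genes that rose included MYLPF, the fast skeletal myosin regulatory light chain. Its level was 2.66 and 2.65 CPM at E16, and 38.0 and 40.7 CPM at E18. The breeds were nearly the same within each stage, and the gene rose 14.9-fold (log2 fold change 3.90 ± 0.28, adjusted p = 0.00498). TNNC2, the fast troponin C, went from 0.431 and 0.704 CPM to 7.38 and 9.10 CPM (log2 fold change 3.87 ± 0.23, adjusted p = 0.00239). NEB, the giant thin filament protein nebulin, went from 1.17 and 1.11 CPM to 8.88 and 18.2 CPM (3.53 ± 0.34, adjusted p = 0.00882), and the embryonic myosin MYH3 rose 9.12-fold (adjusted p = 0.0193). MYL4, an atrial and embryonic light chain, moved the other way, from 150 and 300 CPM to 54.4 and 33.1 CPM, a 4.61-fold fall (adjusted p = 0.0411). The 13 other contractile genes were not called, among them ACTC1, which heart and early skeletal muscle share, at 273 and 556 CPM and then at 205 and 158 CPM (adjusted p = 0.122). At E21, which was not tested against E18 here, the levels were 283 CPM (ZZ) and 367 CPM (DZ) for MYLPF and 7.58 and 6.26 CPM for MYOG. Among barcodes that are not keratin-rich MYLPF, TNNC2, NEB, MYF5, CHRNA1 and MYOG were all called, with log2 fold changes of 5.24, 5.02, 3.77, 3.39, 3.33 and 4.12, whereas PAX7 (0.62, adjusted p = 0.0705) was not. MYL4, at −2.0 there (adjusted p = 0.0625), lost its call with a fold change close to that of the whole libraries.

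The start region of MYOG is shown as the regulatory sequence of a myogenic regulator that rose. It runs from 250 bases before to 50 bases after the gene start of RefSeq on Sscrofa11.1, 5′ to 3′ on the minus strand. Capitals mark the E-box letters CANNTG, the core that MYF5, MYOG and related basic helix-loop-helix factors recognise, which read the same on both strands. The window lies at chr9:113785263-113785562.
MYOG: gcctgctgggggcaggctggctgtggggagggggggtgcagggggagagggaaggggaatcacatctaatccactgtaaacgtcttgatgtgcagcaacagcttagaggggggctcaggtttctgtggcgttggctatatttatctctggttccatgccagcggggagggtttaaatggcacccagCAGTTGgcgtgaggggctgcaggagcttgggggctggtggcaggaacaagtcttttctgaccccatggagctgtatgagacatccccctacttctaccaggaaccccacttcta
The window held 1 match, and 67.8% of the 19559 promoters of the same length held at least 1, so the letters are common and mark no site by themselves.

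Some genes of the formed somite and its dermomyotome rose as well. Of 18 tested genes 6 rose and none fell, against 2.69% higher and 3.60% lower among all genes, and the median log2 fold change was 0.98. MEOX2, a homeobox gene of somite and limb muscle, was at 3.88 and 3.65 CPM at E16 and at 17.1 and 20.6 CPM at E18, a 4.99-fold rise (2.32 ± 0.14, adjusted p = 0.00239). Its partner MEOX1 went from 17.0 and 18.1 CPM to 34.3 and 33.3 CPM (0.95 ± 0.18, adjusted p = 0.0365). DMRT2, a dermomyotome regulator upstream of MYF5, went from 1.89 and 2.56 CPM to 7.60 and 7.17 CPM (1.74 ± 0.23, adjusted p = 0.0189). UNCX, which marks the posterior part of each somite, went from 6.58 and 5.93 CPM to 22.8 and 17.4 CPM (1.67 ± 0.34, adjusted p = 0.0434). SIX4 and MET, the receptor that migrating limb muscle precursors need, were the other genes that passed (adjusted p = 0.0459 and 0.0411). PAX3 was at 10.2 and 17.0 CPM at E16 and at 28.6 and 31.4 CPM at E18 and did not pass (1.14 ± 0.28, adjusted p = 0.0587). TCF15, the regulator of somite epithelialisation, lay between 3.30 and 4.11 CPM in all 4 libraries, and its stages overlapped (−0.01 ± 0.26, adjusted p = 0.991; 0.16 by total UMIs). In barcodes that are not keratin-rich MEOX2 was still called (1.57, adjusted p = 0.00955), but MEOX1 (0.01, adjusted p = 0.972), DMRT2 (0.39, adjusted p = 0.367) and UNCX (0.96, adjusted p = 0.138) were not. There PAX3 was at 0.34 (adjusted p = 0.353) and TCF15 at −0.90 (adjusted p = 0.105), and the median of the list was 0.64. In barcodes with 2 or more paraxial genes the median of the list was 0.084. The 9 genes that define these barcodes, MEOX1, MEOX2, DMRT2 and UNCX among them, are left out there, so the medians cover unlike sets of genes.

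Genes of the presomitic mesoderm and tailbud, from which new somites form, gave a single call. Of 18 tested genes 1 fell and none rose, against 3.60% lower and 2.69% higher among all genes. A log2 fold change above 0 was found in 6, and the median was −0.75. The gene that fell, the Notch ligand DLL3, went from 7.56 and 14.9 CPM to 2.82 and 3.64 CPM (−1.77 ± 0.33, adjusted p = 0.0356). TBXT, the brachyury gene of tailbud and notochord, had 9 and 16 UMIs at E16 and 1 and 0 UMIs at E18, a pooled ratio of 27.7 with a 95% exact binomial interval of 4.54 to 1139 for counting error only (adjusted p = 0.0613). TBX6, needed for presomitic mesoderm, was at 4.16 and 6.10 CPM and then at 2.63 and 2.14 CPM (adjusted p = 0.0883). Without keratin-rich barcodes TBX6 was called (−1.92, adjusted p = 0.0352). MESP2, which sets the next somite boundary, was at 5.07 and 5.01 CPM and then at 8.53 and 8.08 CPM (adjusted p = 0.0852), and HES7 had too few UMIs for a test. CDX4, a caudal homeobox gene, was at 15.8 and 21.6 CPM at E16 and at 4.04 CPM in E18-ZZ but 0.430 CPM in E18-DZ (adjusted p = 0.0531). The median of the group was 0.14 without E16-DZ and −1.38 without E16-ZZ, and it was −1.50 in barcodes with 2 or more paraxial genes.

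**Figure D3:**
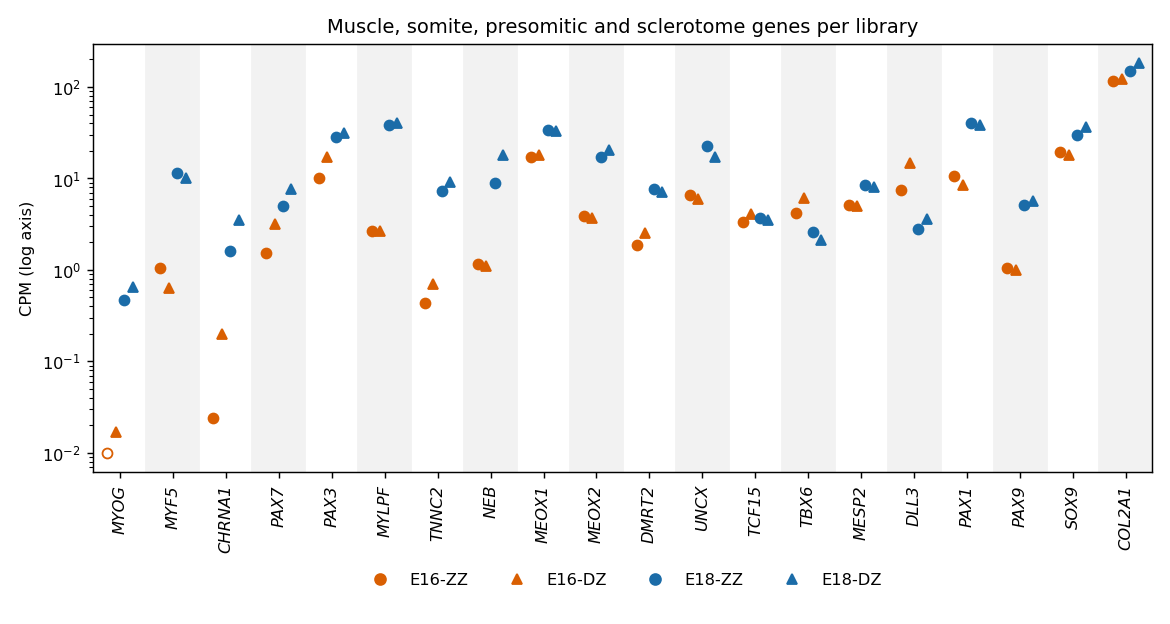
CPM on a log axis of 20 genes of muscle, dermomyotome, presomitic mesoderm and sclerotome in E16-ZZ, E16-DZ, E18-ZZ and E18-DZ (orange E16, blue E18; circles ZZ, triangles DZ); an open symbol is a count of 0 drawn at 0.01. MYLPF stands at 2.66 and 2.65 CPM at E16 and at 38.0 and 40.7 CPM at E18, and the stages overlap for TCF15.

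In the sclerotome list 3 of 11 tested genes rose and 1 fell, against 2.69% higher and 3.60% lower among all genes. The median was 0.77, and 0.477 without E18-DZ. In barcodes with 2 or more paraxial genes it was 0.065. The genes that rose, PAX1, PAX9 and UNCX, help define these barcodes and are left out there, so the medians cover unlike sets of genes. PAX1, which drives sclerotome differentiation, was at 10.7 and 8.51 CPM at E16 and at 40.7 and 38.3 CPM at E18 and rose 4.16-fold (2.06 ± 0.20, adjusted p = 0.00966). Its paralogue PAX9 was at 1.05 and 0.989 CPM and then at 5.17 and 5.69 CPM (2.41 ± 0.22, adjusted p = 0.00882). UNCX, given above, was the other gene that rose. PITX1 is the list's gene that fell, and it is better known as a hindlimb and lateral plate regulator. It stood at 76.0 and 66.2 CPM at E16 and at 14.0 and 10.6 CPM at E18 (−2.54 ± 0.37, adjusted p = 0.0223). Without keratin-rich barcodes PITX1 was at −4.47 (adjusted p = 0.009). SOX9, the cartilage master regulator, was at 19.5 and 18.1 CPM and then at 29.5 and 36.2 CPM (0.81 ± 0.22, adjusted p = 0.0727), and the cartilage collagen COL2A1 at 116 and 122 CPM and then at 150.8 and 181 CPM (adjusted p = 0.126). Cartilage matrix genes had 0 of 13 higher and 1 lower, HAPLN1, which links aggrecan to hyaluronan, with 103 and 109 CPM at E16 and 47.9 and 66.7 CPM at E18 (adjusted p = 0.0365). Among connective tissue genes 2 of 20 rose and 1 fell. COL6A3 rose 1.72 on the log2 scale (adjusted p = 0.04) and the mesenchymal growth factor receptor PDGFRA 1.20 (adjusted p = 0.0238), while fibronectin, FN1, went from 461 and 541 CPM to 184 and 190 CPM (−1.42 ± 0.12, adjusted p = 0.00613). In barcodes that are not keratin-rich PAX1 (1.60, adjusted p = 0.0102), PAX9 (2.56, adjusted p = 0.00841), SOX9 (1.16, adjusted p = 0.0403) and FN1 (−1.24, adjusted p = 0.0102) were all called.

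Further genes were named for the largest rises above 20 CPM. SHISA3, of a family that holds back WNT and FGF receptors, went from 6.32 and 4.49 CPM to 43.2 and 23.4 CPM (2.61 ± 0.31, adjusted p = 0.014). The protocadherin PCDH18 went from 10.9 and 8.82 CPM to 29.8 and 34.6 CPM (1.70 ± 0.23, adjusted p = 0.0188). LRRN1, MOXD1, NKAIN3, RGMB and SCUBE1 rose by 1.57 to 1.62 on the log2 scale, with adjusted p-values of 0.00882 to 0.0135. In barcodes with 2 or more paraxial genes RGMB (1.47, adjusted p = 0.0101), SCUBE1 (1.86, adjusted p = 0.0287), SHISA3 (1.89, adjusted p = 0.0111) and PCDH18 (1.66, adjusted p = 0.0151) were called, and MOXD1 (0.17, adjusted p = 0.564), LRRN1 (0.71, adjusted p = 0.0908) and NKAIN3 (1.04, adjusted p = 0.0681) were not. NR2F1, the orphan nuclear receptor COUP-TF1, was the most abundant of these genes, at 113 and 128 CPM at E16 and at 305 and 398 CPM at E18 (1.55 ± 0.33, adjusted p = 0.0459; 1.05, adjusted p = 0.096, without keratin-rich barcodes).

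In the neural lists the genes that passed were all higher at E18, where 2.69% of all genes were. Of 17 neural tube progenitor genes 3 rose and none fell (median 0.66), and of 18 neuronal genes 2 rose and none fell (median 1.21). NES, the intermediate filament of neural and muscle progenitors, went from 131 and 164 CPM to 325 and 347 CPM (1.20 ± 0.18, adjusted p = 0.0241). ZIC4, of dorsal neural tube and somite, went from 1.79 and 1.98 CPM to 8.09 and 13.4 CPM (2.50 ± 0.29, adjusted p = 0.0135), and its paralogue ZIC1 rose by 1.66 (adjusted p = 0.0227). The proneural gene NEUROD4 went from 0.335 and 0.402 CPM to 3.51 and 4.45 CPM (adjusted p = 0.0301). ELAVL3, a pan-neuronal RNA-binding protein, was at 0.885 and 0.654 CPM and then at 2.44 and 3.44 CPM (adjusted p = 0.163), and PAX6 at 15.0 and 26.6 CPM and then at 29.5 and 36.1 CPM (adjusted p = 0.287). Without keratin-rich barcodes NES (0.91, adjusted p = 0.038) and ZIC4 (1.80, adjusted p = 0.017) were called, and ZIC1 (0.93, adjusted p = 0.112) and NEUROD4 (2.61, adjusted p = 0.0525) were not. In barcodes with 2 or more paraxial genes NES (0.25, adjusted p = 0.364) and ZIC4 (1.37, adjusted p = 0.0864) were not called either, and the median of the progenitor list was 0.079. That median was 0.425 without E16-ZZ and 1.08 without E16-DZ. Neural crest genes had no call among 12. Their regulator SOX10 was at 6.22 and 5.88 CPM at E16 and at 13.4 CPM in E18-ZZ and 27.6 CPM in E18-DZ (1.76 ± 0.43, adjusted p = 0.057), while the more abundant ERBB3 (adjusted p = 0.436) and ETS1 (adjusted p = 0.913) did not pass.

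Epithelial genes had the largest share of falls of any list. All 17 tested had a log2 fold change below 0, 11 of them passed the test, none rose, and the median was −1.93, against 3.60% lower among all genes. CLDN4, a tight junction claudin, was at 73.9 and 48.4 CPM at E16 and at 5.93 and 2.90 CPM at E18, and fell 14.2-fold (−3.83 ± 0.21, adjusted p = 0.00239). The simple-epithelium keratin KRT7 went from 60.7 and 38.4 CPM to 4.36 and 2.90 CPM (−3.76 ± 0.21, adjusted p = 0.00239). In both genes the E16 libraries stood far above the E18 libraries. EPCAM, the epithelial adhesion molecule, was at 68.0 and 69.7 CPM and then at 20.4 CPM in E18-ZZ and 8.89 CPM in E18-DZ (−2.40 ± 0.32, adjusted p = 0.0189). E-cadherin, CDH1, fell 5.84-fold (adjusted p = 0.0237). KRT18 went from 2704 and 1969 CPM to 778 and 565 CPM (−1.80 ± 0.39, adjusted p = 0.0472). Its filament partner KRT8 was at 4953 and 3841 CPM and then at 1560.3 and 1290.2 CPM and did not pass (−1.61 ± 0.67, adjusted p = 0.175). The log2 ratio of E18 to E16 for KRT8 was −1.67 in ZZ and −1.57 in DZ. At E28, which enters the spread, KRT8 was at 24.7 and 2.65 CPM. It was called in barcodes with 2 or more paraxial genes (−1.145, adjusted p = 0.0201) but not without keratin-rich barcodes (−1.03, adjusted p = 0.21). TP63, the regulator of stratified epithelium, lay at 0.742 and 0.771 CPM and then at 0.364 and 0.149 CPM (adjusted p = 0.124). Above 20 CPM, CLDN7, the vesicle GTPase RAB25, the epithelial protease inhibitor SPINT2 and PLPP2 fell by 2.73 to 3.78 on the log2 scale, with adjusted p-values of 0.00613 to 0.00882, and the tachykinin gene TAC3 by 2.89 (adjusted p = 0.0254).

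Since KRT8, KRT18 and EPCAM define the keratin-rich barcodes, the genes were read again without those barcodes. Then 258 genes were higher and 359 lower, 1.91% and 2.65% of 13542 tested, and of the 393 and 526 genes called in the whole libraries 388 and 462 were tested and 187 and 197 called again in the same direction. The median log2 fold changes of those tested were 0.825 and −0.927, against 0.937 and −1.33 in the whole libraries. The median of the epithelial genes was −1.09, and CLDN4 (−2.93, adjusted p = 0.0389) and SPINT2 (−1.70, adjusted p = 0.0388) were called, while KRT7 (−2.25, adjusted p = 0.102), CLDN7 (−0.86, adjusted p = 0.296), EPCAM (−0.88, adjusted p = 0.273), KRT18 (−1.22, adjusted p = 0.0608), RAB25 (−1.53, adjusted p = 0.119), PLPP2 (−1.65, adjusted p = 0.0544) and TAC3 (−0.99, adjusted p = 0.238) were not. The values of EPCAM and KRT18 here are thus not independent of that definition. Among barcodes with 2 or more paraxial genes, 95 genes were higher and 97 lower, 0.845% and 0.863% of 11243 tested. In these, EPCAM and KRT18 were also lower at E18, with EPCAM at −2.46 (adjusted p = 0.00491) and KRT18 at −1.49 (adjusted p = 0.00491). The keratin-rich share of haemoglobin-rich barcodes, given above, was lower at E18 too, and the part of free RNA in these values was not tested. MYLPF (4.04, adjusted p = 0.0195), MYF5 (2.66, adjusted p = 0.0192) and PAX7 (2.63, adjusted p = 0.00572) were higher, while TNNC2 (1.97, adjusted p = 0.412) and CHRNA1 (1.90, adjusted p = 0.178) were not called. Of the 393 and 526 genes 353 and 359 were tested there, of which 56 and 65 were called in the same direction, with median log2 fold changes of 0.681 and −0.696 over those tested, against 0.875 and −1.02 for the same genes in the whole libraries.

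Endoderm, liver and yolk sac genes, which encode plasma proteins and their regulators, had 7 of 23 lower, none higher and a median of −2.80 that was −1.61 without E16-DZ and −1.87 without E18-DZ. APOA2, an apolipoprotein, was at 8.61 CPM (ZZ) and 37.6 CPM (DZ) at E16 and at 1.37 and 0.563 CPM at E18 (−4.25 ± 0.80, adjusted p = 0.0364). The fibrinogen chain FGB was at 10.6 and 46.1 CPM and then at 1.90 and 1.24 CPM (−4.12 ± 0.75, adjusted p = 0.034), and FGA at 25 and 154 UMIs and then at 3 and 1 UMIs (adjusted p = 0.0457). In all of these E16-DZ was higher than E16-ZZ, and both stood above E18. The secreted apolipoprotein carrier APOM, which is outside the list, followed the same order with 9.48 and 40.2 CPM and then 1.65 and 1.03 CPM (adjusted p = 0.034). AFP, of yolk sac and fetal liver, was at 17.7 and 53.2 CPM and then at 5.02 and 1.72 CPM and did not pass (adjusted p = 0.0615), and ALB lay between 0.455 and 0.761 CPM in all 4 libraries. Among the 15 cardiac genes, all of which had a log2 fold change below 0 (median −1.54, −0.887 at a mitochondrial limit of 5%), 6 fell. The natriuretic peptide NPPB went from 26.0 and 53.7 CPM to 3.46 and 2.14 CPM (−3.74 ± 0.48, adjusted p = 0.0181), and cardiac troponin T, TNNT2, from 195 and 357 CPM to 67.5 and 35.1 CPM (−2.30 ± 0.51, adjusted p = 0.0492). Without keratin-rich barcodes APOA2 (−4.16, adjusted p = 0.0749), FGB (−1.94, adjusted p = 0.131), APOM (−2.35, adjusted p = 0.197) and TNNT2 (−1.91, adjusted p = 0.0666) were not called, and NPPB was (−3.61, adjusted p = 0.0118). In barcodes with 2 or more paraxial genes APOA2 (−5.78, adjusted p = 0.0388), APOM (−4.02, adjusted p = 0.0322) and FGB (−3.37, adjusted p = 0.0244) were called. There TNNT2 (−2.18, adjusted p = 0.0565) and NPPB (−3.705, adjusted p = 0.056) were not.

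Of 19 lateral plate and coelomic genes 6 fell and none rose (median −1.03, −0.62 without E16-ZZ and −0.63 at a mitochondrial limit of 5%). Among all genes 3.60% were lower and 2.69% higher, and the endothelial, macrophage and red cell counts below stand beside these shares too. HAND1 went from 139 and 144 CPM to 69.0 and 75.5 CPM (−0.97 ± 0.11, adjusted p = 0.0189). TBX4, of hindlimb mesoderm, went from 2.85 and 2.98 CPM to 0.273 and 0.348 CPM (−3.23 ± 0.39, adjusted p = 0.02), and UPK1B, of coelomic epithelium, fell 4.05-fold (adjusted p = 0.00613). Without keratin-rich barcodes HAND1 (−1.28, adjusted p = 0.125) and TBX4 (−2.52, adjusted p = 0.0799) were not called, and UPK1B was (−1.61, adjusted p = 0.0167). GATA4 was at 34.2 and 27.9 CPM and then at 16.9 and 13.4 CPM (adjusted p = 0.283). Endothelial genes had 3 of 18 lower and none higher (median −0.97, −1.65 without keratin-rich barcodes). PECAM1, the platelet-endothelial adhesion molecule, went from 69.7 and 59.0 CPM to 22.8 and 27.7 CPM (−1.34 ± 0.24, adjusted p = 0.0317), and the receptor KDR from 33.9 and 44.1 CPM to 12.2 and 17.7 CPM (−1.39 ± 0.33, adjusted p = 0.0555). Without keratin-rich barcodes both were called, at −2.04 (adjusted p = 0.0102) and −2.005 (adjusted p = 0.0189). Macrophage genes were scarce, with summed levels of 27.6 and 29.6 CPM at E16 and 9.76 and 9.82 CPM at E18, and 3 of 9 fell. The mannose receptor MRC1 had 228 and 771 UMIs and then 38 and 33 UMIs (adjusted p = 0.02). CSF1R had 44 and 22 UMIs and then 12 and 2 UMIs (adjusted p = 0.034). AIF1 had 67 and 76 UMIs and then 47 and 29 UMIs (adjusted p = 0.0494). In CPM, MRC1 was higher in E16-DZ than in E16-ZZ, and CSF1R was lower there. Red cell genes had no call among 13. The embryonic globin HBE1 went from 4136 to 9224 CPM in ZZ and from 8462 to 5363 CPM in DZ, so the stages overlapped and the breeds moved in opposite directions (adjusted p = 0.738).

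**Figure D4:**
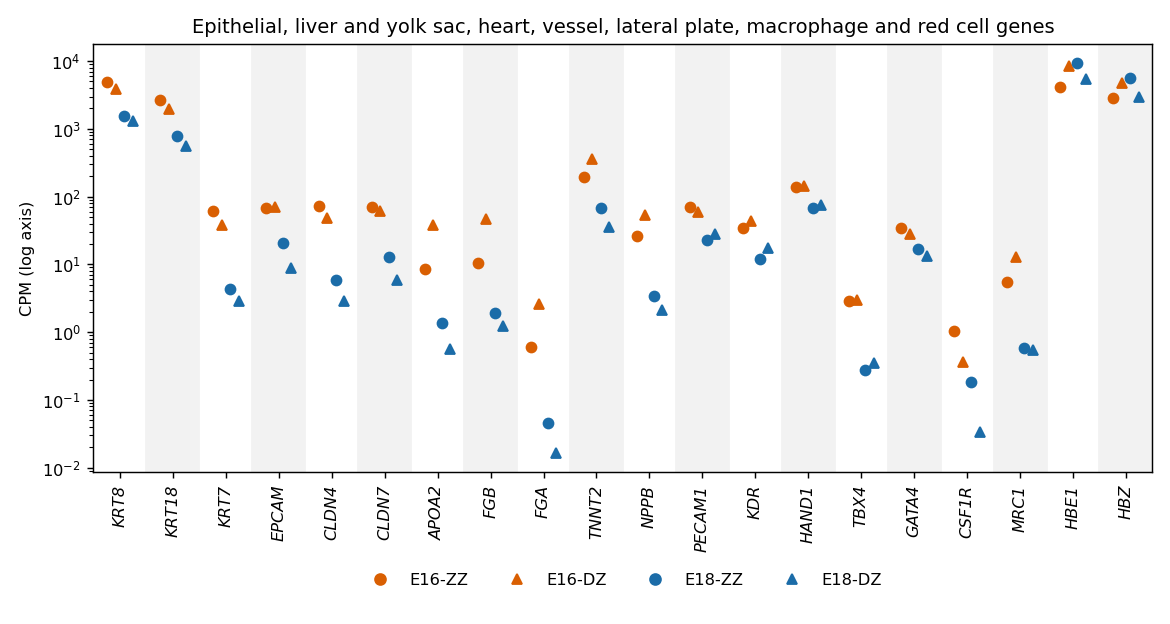
CPM on a log axis of 20 genes of epithelium, endoderm, heart, vessels, lateral plate, macrophages and red cells in the 4 libraries (orange E16, blue E18; circles ZZ, triangles DZ). CLDN4 lies at 73.9 and 48.4 CPM at E16 and at 5.93 and 2.90 CPM at E18, while HBE1 and HBZ overlap between stages.

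HOX genes, whose paralogue number follows the order in which they are expressed from head to tail, had 4 calls. Among all genes 2.69% were higher and 3.60% lower. In paralogues 1 to 4, 2 of 10 rose and none fell (median 0.84), in 5 to 8, 1 of 10 rose (median 0.45), and in 9 to 13, 1 of 12 fell and none rose (median −3.70). HOXA3 went from 14.3 and 16.7 CPM to 42.1 and 47.4 CPM (1.53 ± 0.32, adjusted p = 0.0433), HOXD3 rose 2.32-fold (adjusted p = 0.034), and HOXC5 went from 6.68 and 5.66 CPM to 26.9 and 22.2 CPM (1.99 ± 0.40, adjusted p = 0.0403). HOXA2, HOXA5, HOXB2, HOXB4, HOXB5, HOXB6, HOXB8, HOXC4 and HOXD4 were higher in both E18 libraries than in both E16 libraries. None of them passed (adjusted p = 0.0609 to 0.504), and in 65.6% of all genes tested the stages did not overlap, in either direction. HOXA13, the last gene of its cluster and active in the hindgut, tail and limb tips, was at 35.9 and 25.8 CPM at E16 (1499 and 1539 UMIs) and at 0.288 and 0.0331 CPM at E18 (19 and 2 UMIs). It fell 187-fold (−7.55 ± 1.59, adjusted p = 0.0443), the largest fall among the named genes that passed. HOXA11 had 417 and 509 UMIs at E16 and 8 and 0 at E18 (adjusted p = 0.0724), and HOXD13 had 474 and 462 UMIs and then 7 and 1 (adjusted p = 0.0789).

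The E18 libraries differed from each other in this group. HOXA10 was at 51.9 and 44.9 CPM at E16, at 2.08 CPM (137 UMIs) in E18-ZZ and at 0.0331 CPM (2 UMIs) in E18-DZ (adjusted p = 0.123). HOXA9 was at 65.8 and 57.6 CPM, then at 23.3 CPM in E18-ZZ and 2.05 CPM in E18-DZ (adjusted p = 0.0862), and HOXC9 at 30.9 and 36.1 CPM, then at 18.3 and 3.03 CPM (adjusted p = 0.125). E18-DZ was thus the lowest of the 4 libraries for each of them. HOXB9 also had its lowest level there, but its highest in E18-ZZ, with 72.2 and 83.4 CPM at E16, 129 CPM in E18-ZZ and 65.0 CPM in E18-DZ (adjusted p = 0.657). HOXC6 showed the same order, at 23.6 and 27.1 CPM, then at 41.8 CPM in E18-ZZ and 14.3 CPM in E18-DZ (adjusted p = 0.969). The ZZ and DZ libraries also differed at the later stages. HOXA10 was at 2.52 CPM in E21-ZZ and 24.8 CPM in E21-DZ, and at 79.6 CPM in E28-ZZ and 1.53 CPM in E28-DZ. Each library is a pool from a single sow, so breed and sow cannot be told apart. HOXA13 in contrast was at most 2.55 CPM in all 4 later libraries. Which levels of the body axis each pool held is not given in the sources used here, so axial level and stage cannot be told apart. With E18-ZZ left out the median of paralogues 9 to 13 was −6.3, and with E18-DZ left out −2.61. With E18-ZZ left out the median of paralogues 5 to 8 was 0.028, and with E18-DZ left out 0.81. In barcodes with 2 or more paraxial genes the medians of the 3 groups were 0.24, 0.15 and −1.88, and without keratin-rich barcodes 0.47, 0.34 and −4.97. Among barcodes with 2 or more paraxial genes HOXA13 was called (−9.11, adjusted p = 0.0226), while HOXA3 (0.93, adjusted p = 0.153), HOXD3 (0.39, adjusted p = 0.46) and HOXC5 (0.51, adjusted p = 0.589) were not. Without keratin-rich barcodes none of these 4 was called, with HOXA3 at 1.02 (adjusted p = 0.103), HOXD3 at 0.89 (adjusted p = 0.0705), HOXC5 at 1.83 (adjusted p = 0.0571) and HOXA13 at a fitted −12.66 (adjusted p = 0.0588).

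**Figure D5:**
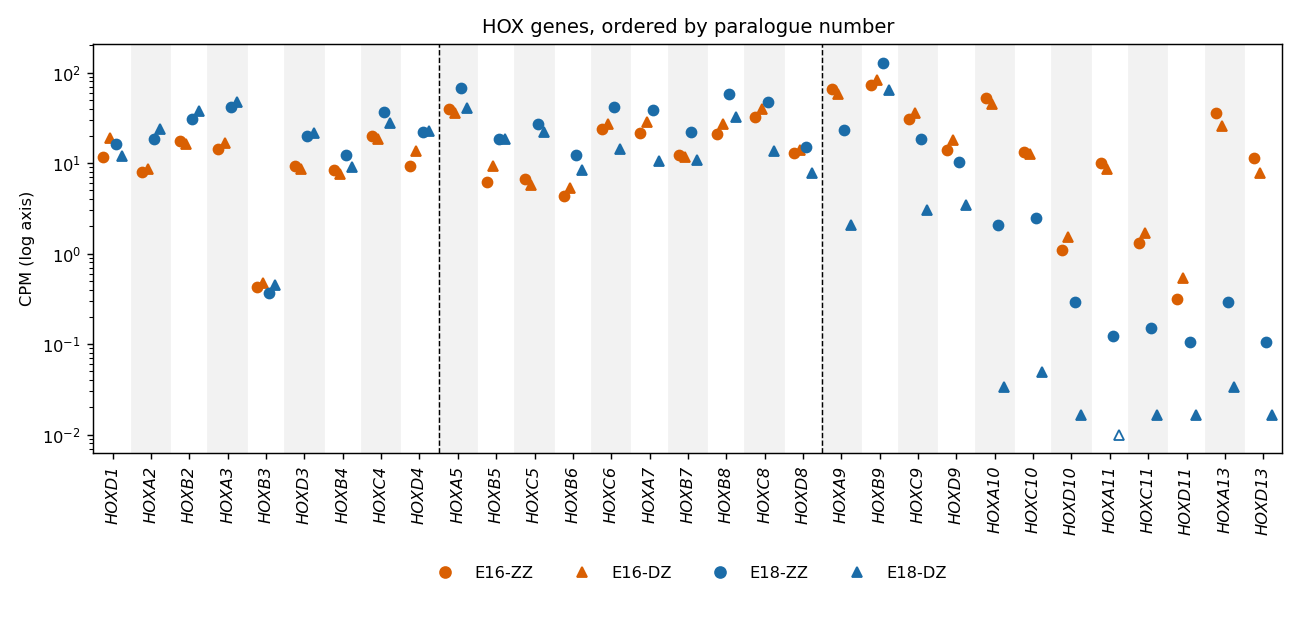
CPM on a log axis of 31 HOX genes, from paralogue 1 (left) to 13 (right), in the 4 libraries (orange E16, blue E18; circles ZZ, triangles DZ); dashed lines part paralogues 1 to 4, 5 to 8 and 9 to 13, and the open symbol is a count of 0 drawn at 0.01. Blue symbols lie at or above orange ones for most of paralogues 1 to 5 and far below them for paralogues 10 to 13.

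In the signalling lists single members passed in both directions, against 2.69% higher and 3.60% lower among all genes. Of 30 BMP and TGF-beta genes 6 fell and 1 rose. BAMBI, a decoy receptor induced by BMP signals, went from 113 and 121 CPM to 45.6 and 51.6 CPM (−1.27 ± 0.10, adjusted p = 0.00613), and the inhibitory SMAD7 from 15.8 and 18.1 CPM to 6.60 and 6.62 CPM (−1.35 ± 0.23, adjusted p = 0.0304). The activin subunit INHBA fell 11.3-fold (adjusted p = 0.0135), and the receptor BMPR1B rose by 0.81 (adjusted p = 0.0356). Hedgehog genes had 2 higher and 2 lower of 14. The ligand IHH, made by gut epithelium and cartilage, had 549 and 416 UMIs at E16 and 9 in each E18 library (−6.07 ± 0.55, adjusted p = 0.00882), and the target FOXF1 fell by 1.35 (adjusted p = 0.0372), whereas the effector GLI2 went from 12.6 and 13.2 CPM to 21.4 and 22.5 CPM (0.77 ± 0.13, adjusted p = 0.0295) and the co-receptor BOC rose by 0.77 (adjusted p = 0.0276). In the Notch list 2 of 21 rose and 1 fell. HEYL, a Notch target, went from 0.766 and 1.06 CPM to 7.50 and 6.70 CPM (2.97 ± 0.37, adjusted p = 0.0161), DTX4 rose by 1.51 (adjusted p = 0.0496), and DLL3 fell, as given above. WNT genes had 2 of 34 higher and 1 lower, with ZNRF3 up by 0.94 (adjusted p = 0.0254), SFRP1 up by 0.79 (adjusted p = 0.0226; −0.225 in barcodes with 2 or more paraxial genes) and the ectodermal ligand WNT6 down from 17.4 and 18.9 CPM to 3.96 and 1.32 CPM (adjusted p = 0.0269). FGF genes had 1 of 22 higher, the feedback phosphatase DUSP4 (0.98 ± 0.11, adjusted p = 0.0132), and 2 lower, FGF18 (adjusted p = 0.0193) and FGF19 (adjusted p = 0.0493). In the retinoic acid list 2 of 18 rose and 1 fell, among them the retinol receptor STRA6, which rose by 1.04 (adjusted p = 0.0439), and the synthetic enzyme ALDH1A3, which fell by 1.98 (adjusted p = 0.02).

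Many of these signalling calls were lost without keratin-rich barcodes. Over all genes, 187 of the 393 higher and 197 of the 526 lower genes were called again there. In the BMP and TGF-beta list BAMBI was then at −0.495 (adjusted p = 0.0674), SMAD7 at −0.29 (adjusted p = 0.532), INHBA at −1.92 (adjusted p = 0.127) and BMPR1B at 0.74 (adjusted p = 0.0566). Among hedgehog genes FOXF1 (−0.72, adjusted p = 0.312) and BOC (0.24, adjusted p = 0.21) were not called, and IHH (−3.78, adjusted p = 0.0448) and GLI2 (1.02, adjusted p = 0.0208) were. WNT6 was at −0.77 (adjusted p = 0.488) and SFRP1 at 0.37 (adjusted p = 0.101), while ZNRF3 was called (0.85, adjusted p = 0.0426). FGF19 (−1.22, adjusted p = 0.245), DTX4 (1.40, adjusted p = 0.0606) and STRA6 (0.64, adjusted p = 0.0965) were not called, and ALDH1A3 was at −0.021 (adjusted p = 0.998). DLL3 (−2.59, adjusted p = 0.0106), HEYL (2.52, adjusted p = 0.0207), DUSP4 (0.61, adjusted p = 0.0348) and FGF18 (−1.99, adjusted p = 0.0167) were called there.

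Genes of growth, division and metabolism are given beside 2.69% higher and 3.60% lower among all genes. Mitosis genes had 2 of 24 higher and none lower (median 0.27), CENPF with 333 and 433 CPM at E16 and 640 and 632 CPM at E18 (0.74 ± 0.15, adjusted p = 0.041) and CENPE (0.50, adjusted p = 0.0452). Among 26 replication genes UHRF1 rose by 0.70 (adjusted p = 0.0443) and CDT1 fell by 0.53 (adjusted p = 0.0434). Of the cell cycle inhibitors CDKN1B rose by 0.68 (adjusted p = 0.0493), the only call among 10 genes of D cyclins and inhibitors. LIN28B, a timer that blocks let-7 microRNA maturation, was at 79.9 and 92.2 CPM at E16 and at 112 and 126 CPM at E18 (0.47 ± 0.10, adjusted p = 0.0434), while its paralogue LIN28A was at 9.86 and 15.1 CPM and then at 5.57 and 6.34 CPM (−1.05 ± 0.35, adjusted p = 0.121). Among 14 imprinted genes the growth regulator DLK1 fell 11.6-fold (adjusted p = 0.0186) and PHLDA2 by 1.51 (adjusted p = 0.0436), and PEG10 rose by 0.82 (adjusted p = 0.0401). LIN28B was the only call among 12 pluripotency and timing genes. Of 12 genes of intermediate mesoderm and kidney 1 fell, CITED1, from 14.8 and 16.3 CPM to 6.49 and 5.84 CPM (adjusted p = 0.0269), and of 5 sex-linked genes none was called. Without keratin-rich barcodes CENPE, CDT1, DLK1 and CITED1 were called, while CENPF, UHRF1, CDKN1B, LIN28B, PHLDA2 and PEG10 were not (adjusted p = 0.0535 to 0.243). Of these LIN28B was at 0.22 and PHLDA2 at −0.68, less than in the whole libraries by over 1.5 times, and CENPF (0.62), UHRF1 (0.58), CDKN1B (0.56) and PEG10 (0.74) moved less than that.

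The median log2 fold change of all genes tested was 0.01, and the share of them below 0 was not computed. All 49 ribosomal protein genes tested had a log2 fold change below 0, with a median of −0.24 and no call. By total UMIs alone their median was −0.07. RPS2 was at 10927 and 11744 CPM at E16 and at 8027 and 8808 CPM at E18 (−0.43 ± 0.17, adjusted p = 0.163). Nuclear genes of oxidative phosphorylation had 34 of 35 below 0 (median −0.31, −0.14 by total UMIs) and 1 call, CYC1, which fell by 0.62 (adjusted p = 0.031; −0.45, adjusted p = 0.0817, without keratin-rich barcodes). Glycolysis genes had no call among 20 (median −0.28), and mitochondrially encoded genes none among 13. Of genes that respond to handling and stress, 1 of 22 immediate-early and heat-shock genes and 4 of 19 hypoxia and stress genes fell. None of them rose, and among all genes 3.60% were lower and 2.69% higher. All 22 immediate-early and heat-shock genes were below 0, with a median of −0.98 that was −0.13 without E16-ZZ and −1.51 without E16-DZ. Only HSPB1 passed, from 990 and 633 CPM to 397 and 350 CPM (−1.10 ± 0.19, adjusted p = 0.0295; 0.10 in barcodes with 2 or more paraxial genes). FOS was at 838 and 483 CPM at E16 and at 116 and 238 CPM at E18 (adjusted p = 0.0732). Of 19 hypoxia and stress genes 4 fell, among them NDRG1 (−1.34, adjusted p = 0.0248; −0.65, adjusted p = 0.149, without keratin-rich barcodes), HERPUD1 (−1.02, adjusted p = 0.0365) and VEGFA (−1.14, adjusted p = 0.0421; 0.04 without keratin-rich barcodes). Whether handling before sequencing has a part in the other results was not tested.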

How the data were processed

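The authors dissociated somites at E16, E18 and E21 and the myotome at E28, prepared 10x Chromium 3' v3 libraries and deposited, for each library, whole-number UMI counts made with Cell Ranger, neither normalized nor corrected between libraries. The matrix headers name versions 3.1.0 (E16) and 3.0.2 (other stages), and the paper's methods name Sscrofa11.1 with Ensembl release 98 for the pig reference. Of 21301 features 14846 carry a symbol in the files and 687 more were named from a table of gene names. Features with neither were tested without a name. Coordinates are those of RefSeq on Sscrofa11.1, matched by symbol.

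Barcodes with at least 200 genes, at most 30000 UMIs and at most 10% mitochondrial UMIs were summed per library. Doublets were not removed, whereas the paper used DoubletFinder. Genes passing edgeR's default filter on low counts in the 4 E16 and E18 libraries were fitted by edgeR 4.0.16 (quasi-likelihood, TMM) over the 8 libraries with stage and breed as terms, in R 4.3.3, with Benjamini-Hochberg adjustment at 0.05. SE is the log2 fold change divided by the root of F. The test was tested on simulated data first. DESeq2 1.42.0 was an alternative. Sums and descriptions were made in Python (3.11.15), with pandas 2.3.3, numpy 2.4.6 and scipy 1.17.1.

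Genes were named by rule: in each direction the 12 with the largest change that passed, did not overlap and reached a mean of 20 CPM in the higher stage; of each of 39 lists the 3 that passed with the largest change in each direction, or the 2 highest where none passed; a fixed set of lineage genes; and the HOX genes tested. Others, such as TP63, FOS, ACTC1, AFP, ALB, CDX4, MYF6, MYMK, CDH15, TCF12, MYH3, CDH1, SIX4 and MET, were picked from the lists after their values were seen. The members and lists were chosen with earlier results of these data known. SOX2, POU5F1, IGF2 and H19 were not analysed here. Of the genes this rule names, 4 are not reported here, though they stay in the fit and the counts. The alternatives changed the libraries fitted, the scaling, the filters on genes and barcodes, the threshold and the tool.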

Additional observations from a re-analysis of the deposited data

Results flagged for a closer look

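In 12 named genes the breeds moved in opposite directions between E16 and E18, and each value is the log2 ratio of E18 to E16 in DZ minus that in ZZ, after adding 0.5 CPM. With 1 library per stage and breed these differences were not tested. Of the 12, 7 were HOX genes, with −2.21 for HOXA7, −2.04 for HOXC8 and −1.72 for HOXC6, with −1.19 for HOXB9, −1.11 for HOXD1, −1.05 for HOXD8 and −0.909 for HOXB7. HOX genes were named whatever their values and most others for passing the test, so this number partly follows from the naming rule. The share of such genes over all genes tested was not computed. In HOXA7 the log2 ratio was 0.84 in ZZ and −1.37 in DZ. The embryonic globins HBE1 (−1.82) and HBZ (−1.66) were higher at E18 in ZZ and lower in DZ. The Y-linked EIF1AY had −2.14, the transcription factor ETS1 0.756 and TCF15 −0.343. None of the 12 passed the test between the stages.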

How the results depend on the processing

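Every value depends on 4 libraries, and depth limits genes of few UMIs such as MYOG, TBXT and HOXD11. The higher and lower counts of 393 and 526 genes became 918 and 1295 with only the 4 libraries fitted, 880 and 1217 with these and no breed term, 1002 and 1284 by DESeq2, 691 and 330 by total UMIs without TMM, 32 and 43 at a mitochondrial limit of 5%, 95 and 97 in barcodes with 2 or more paraxial genes, and 19 and 18 at an adjusted p under 0.01. The higher count was 245 after thinning to 1500 UMIs and 258 without keratin-rich barcodes. Leaving out 1 library gave 11 to 29 higher and 6 to 62 lower genes. The cause of the changed counts was not tested. Where a library is left out, its values and a degree of freedom go together and cannot be told apart. The other alternatives (no breed term over 8 libraries, 6 somite libraries, median-ratio size factors, no filter on low counts, no mitochondrial limit, at least 1000 UMIs, no haemoglobin-rich barcodes, no mitochondrial genes) kept both counts within 1.5 times. No paired analysis by replicate number was made because the labels give none; breed is the pairing used.

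Log2 fold changes of named genes that changed sign are as follows, and the cause was not tested. In barcodes with 2 or more paraxial genes they were −0.89 (HBE1), −1.07 (HBZ), −0.29 (HOXB4), −0.54 (HOXB7), −0.94 (HOXB9), −0.24 (HOXC4), −0.16 (HOXC6), 0.35 (HOXD8), 0.10 (HSPB1), −0.10 (MESP2) and −0.225 (SFRP1). Without keratin-rich barcodes they were −0.28 (ETS1), −0.28 (HBE1), −0.34 (HBZ), −0.049 (HOXB4), −0.074 (HOXB9) and 0.04 (VEGFA). After thinning ETS1 was at −0.013 and KDM5C at −0.077. By total UMIs HOXB3 was at 0.016, HOXD1 at 0.014 and TCF15 at 0.16. At a mitochondrial limit of 5% HOXB3 was at 0.016 and HOXC6 at −0.018, and with no such limit HOXC6 was at −0.036 and TCF15 at 0.046. HOXC6 was at −0.045 with the 4 libraries and breed and at −0.022 with the 6 somite libraries. With 1 library left out the range was −0.35 to 2.48 for EIF1AY, −0.77 to 0.042 for ERBB3, −0.28 to 0.40 for ETS1, −0.51 to 0.028 for GAPDH, −0.43 to 0.90 for HBE1, −0.58 to 0.89 for HBZ, −1.18 to 0.59 for HOXA7, −0.35 to 0.036 for HOXB3, −0.16 to 0.90 for HOXB7, −0.33 to 0.81 for HOXB9, −0.80 to 0.69 for HOXC6, −1.43 to 0.44 for HOXC8, −0.67 to 0.47 for HOXD1, −0.81 to 0.21 for HOXD8 and −0.27 to 0.24 for TCF15.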
